A study of Mus musculus with 12 samples.

Results

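The collagen genes of mouse tibialis anterior, a shin muscle, were described across diet and vector. Members were all genes whose symbol is Col, a number, the letter a and a number, with 10 or more read counts summed over the 12 libraries. Of the 22607 genes in the table, 43 were members: 11 fibrillar, 8 basement membrane and 24 other collagens. The muscles came from C57BL/6 males aged 13 weeks and were transduced with a GFP (empty) vector or with a Crtc2 vector. Crtc2 works with the transcription factor Creb1 in switching on cyclic AMP target genes. One arm of the study had food ad libitum and the other had 3 rounds of ADF, alternate day fasting. This gave 4 groups of 3 libraries: fed with GFP, fed with Crtc2, ADF with GFP and ADF with Crtc2. Both vectors were delivered to muscle, so no group was untransduced, and the labels give neither the promoter of the vectors nor the cells they reached.

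Collagens are extracellular proteins whose chains wind around each other into a stiff helix. Fibrillar collagens, chiefly types I, III and V, form the tensile fibres that surround muscle fibres and bundles and continue into tendon. Type IV collagen forms the sheet of the basement membrane around each muscle fibre and capillary, with types XV and XVIII attached to it, and type VI collagen forms beaded microfilaments next to it. In skeletal muscle these genes are transcribed mainly by fibroblasts, tendon cells and vessel cells, and muscle fibres make up most of the RNA.

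The libraries held 24232450 to 34610417 counts, and 14313 to 17226 genes had a count. Crtc2 itself was measured at 58.2 to 77.9 CPM (read counts scaled to library size and composition) in fed Crtc2 and 17.3 to 29.2 CPM in fed GFP libraries. It was 31.4 to 42.8 CPM in ADF Crtc2 and 16.1 to 23.6 CPM in ADF GFP libraries, so the vector labels held in all 12 libraries. Skeletal muscle fibre markers (10 genes, among them Acta1, Ckm and Ttn) summed to 115827 to 199562 CPM per library. The labels do not say whether the libraries of a group came from separate animals. Spread between libraries, on which every p-value rests, may thus be technical. The protocols name 2 library kits without assigning them to libraries, so a kit that followed the diet or the vector cannot be told apart from either.

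Collagen transcripts made up a small part of the muscle RNA, from 0.0883 to 0.548% of the counts of a library. Per kilobase of exon and averaged over the 12 libraries, Col1a1 had the highest level (60.6 CPM per kb), followed by Col3a1 (52.6), Col1a2 (32.8), Col4a1 (32.7) and Col4a2 (28.6). Type VI followed, with Col6a1 at 18.7 and Col6a2 at 9.86 CPM per kb, then Col15a1 at 7.52 and Col5a1 at 6.72. The order per kilobase changed between groups: in ADF Crtc2 muscle Col3a1 (38.3 CPM per kb) was above Col1a1 (34.04), and in fed muscle Col4a1 was above Col1a2 (33.9 against 30.6 with GFP, 29.6 against 24.6 with Crtc2). Lengths are of all annotated exons of a gene merged, not of 1 transcript. They were 12.43 kb for Col1a2 and 7.46 kb for Col4a1. By CPM alone Col1a2 was above Col4a1 in fed muscle (380 against 253 with GFP, 305 against 221 with Crtc2). Mean CPM of Col3a1 was above that of Col1a1 in all 4 groups. Col6a1 and Col6a2 had nearly equal mean CPM (81.8 and 82.1). Fibrillar members held 46.7 to 68.7% of the collagen CPM of a library, basement membrane members 16.8 to 29.8% and the others 13.0 to 23.4%. Of the 43 members, 38 passed the filter on low counts and were tested: all 11 fibrillar, 7 basement membrane and 20 other collagens. Col4a6, Col6a4, Col10a1, Col19a1 and Col9a2 were not tested, with 100, 134, 45, 70 and 19 counts over all libraries.

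The summed collagen level was highest in ADF GFP muscle and lowest in ADF Crtc2 muscle. It was 2367 ± 1031 CPM (SD, n = 3) in fed GFP, 1889 ± 831 in fed Crtc2, 3875 ± 1285 in ADF GFP and 1452 ± 352 in ADF Crtc2 libraries. Every ADF GFP library (2604 to 5173 CPM) lay above every ADF Crtc2 library (1055 to 1725 CPM), while both fed groups overlapped with each other and with both ADF groups. The 3 classes moved by similar factors under ADF: the mean of Crtc2 muscle was 2.71-fold lower than that of GFP muscle for fibrillar, 2.68-fold for basement membrane and 2.48-fold for other collagens. In GFP muscle the ADF mean was 1.76-fold the fed mean for fibrillar, 1.51-fold for basement membrane and 1.38-fold for other collagens. In Crtc2 muscle the ADF mean was 1.13-fold lower for fibrillar, 1.58-fold lower for basement membrane and 1.66-fold lower for other collagens. In that last class Col7a1 alone went from 112 to 9.28 CPM, while the class mean went from 375 to 225 CPM. With GFP, Col7a1 fell from 61.4 to 7.04 CPM while the class mean rose from 405 to 559 CPM. The fibrillar direction in Crtc2 muscle rested on 1 library: without fed Crtc2 replicate 2 the ADF mean was 1.30-fold higher. Without fed GFP replicate 3 the ADF mean of basement membrane collagens in GFP muscle was 2.32-fold the fed mean. These sums were not tested. In whole muscle, fewer cells that make collagen and less collagen RNA per cell cannot be told apart.

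**Figure D1:**
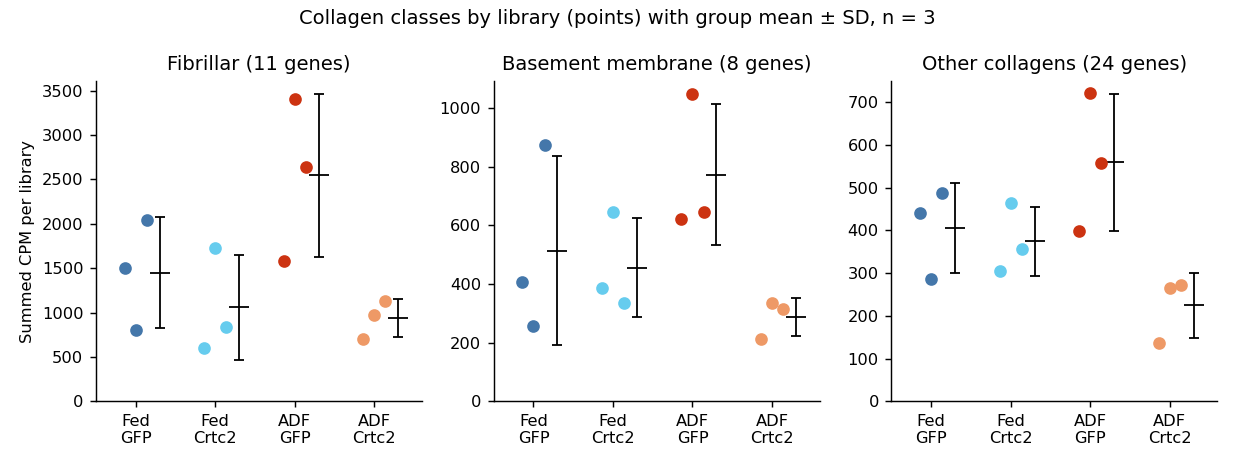
Summed CPM of fibrillar, basement membrane and other collagens in each library (points, vertical axis from 0) of the 4 groups, with the group mean ± SD as bars (n = 3). In all 3 classes the ADF GFP libraries lie above the ADF Crtc2 libraries, and the fed groups overlap.

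Among the fibrillar collagens, Col1a1 and Col1a2 encode the chains of type I collagen, the main component of tendon and of the perimysium. Col1a1 stood at 489.9, 189 and 588 CPM in fed GFP, 172, 474 and 236 in fed Crtc2, 417, 812 and 724 in ADF GFP, and 189, 241 and 240.0 in ADF Crtc2 libraries. The values of Col1a2 were 407, 204 and 529 CPM in fed GFP, 134, 547 and 235 in fed Crtc2, 448, 889 and 764 in ADF GFP, and 187, 265 and 290.4 in ADF Crtc2 libraries. For both genes the ADF GFP libraries were all above the ADF Crtc2 libraries, and the fed groups overlapped with each other. Col3a1 encodes type III collagen, which forms fine reticular fibres in the endomysium. It was measured at 345, 274 and 706 CPM in fed GFP, 214, 497 and 216 in fed Crtc2, 567, 1332 and 914 in ADF GFP, and 252, 384 and 492 in ADF Crtc2 libraries. Again the ADF groups did not overlap, and fed GFP overlapped with both.

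Type V collagen starts fibril assembly and limits fibril width. Its chain gene Col5a1 was at 58.7, 32.1 and 85.5 CPM in fed GFP, 11.5, 52.6 and 34.7 in fed Crtc2, 73.9, 143 and 87.1 in ADF GFP, and 28.4, 30.9 and 46.4 in ADF Crtc2 libraries. Values for Col5a2 were 38.2, 27.1 and 35.3 CPM in fed GFP, 10.95, 54.7 and 16.2 in fed Crtc2, 41.5, 142 and 82.8 in ADF GFP, and 20.6, 32.0 and 31.7 in ADF Crtc2 libraries. The 3 ADF GFP libraries of Col5a2 all exceeded its 3 fed GFP libraries, as held for 6 of the 38 tested members (15.8%) and for 14.3% of all genes. Col5a3 was at 51.2, 28.9 and 36.8 CPM in fed GFP, 32.0, 32.7 and 36.4 in fed Crtc2, 26.1, 60.04 and 41.9 in ADF GFP, and 21.03, 16.4 and 19.2 in ADF Crtc2 libraries. Its ADF Crtc2 libraries lay below all 9 others.

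In the basement membrane class, Col4a1 and Col4a2 encode the chains of the type IV network found in nearly all basement membranes. They lie head to head on chromosome 8, with starts 21 bp apart. Col4a1 was at 191, 122 and 446 CPM in fed GFP, 173, 332 and 158 in fed Crtc2, 276, 499.6 and 304 in ADF GFP, and 95.4, 176 and 157 in ADF Crtc2 libraries. Col4a2 was at 151, 95.6 and 309.9 CPM in fed GFP, 148, 210.0 and 136 in fed Crtc2, 266, 391 and 251 in ADF GFP, and 79.9, 115 and 120.3 in ADF Crtc2 libraries. Both genes were higher in every ADF GFP than in every ADF Crtc2 library, and the Col4a1 to Col4a2 ratio was 1.04 to 1.58 over the 12 libraries. Col15a1 encodes type XV collagen, which links the basement membrane to the fibres beside it. It was measured at 43.4, 20.8 and 83.6 CPM in fed GFP, 23.4, 77.0 and 25.6 in fed Crtc2, 58.1, 114 and 58.8 in ADF GFP, and 19.3, 27.4 and 21.8 in ADF Crtc2 libraries. Col18a1, whose protein releases endostatin, was at 13.9, 5.71 and 19.0 CPM in fed GFP, 21.9, 16.1 and 7.11 in fed Crtc2, 14.1, 38.2 and 26.9 in ADF GFP, and 17.8, 9.91 and 12.7 in ADF Crtc2 libraries. It was the exception among the 13 collagens given by library, since its ADF groups overlapped.

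Loss of type VI collagen causes muscular dystrophy, and its main chains are encoded by Col6a1, Col6a2 and Col6a3. Col6a1 was at 123, 45.7 and 102 CPM in fed GFP, 38.9, 89.3 and 62.9 in fed Crtc2, 92.1, 178 and 141 in ADF GFP, and 19.4, 37.2 and 52.7 in ADF Crtc2 libraries. For Col6a2 the libraries gave 87.7, 39.6 and 99.8 CPM in fed GFP, 24.5, 62.2 and 66 in fed Crtc2, 132, 188 and 149 in ADF GFP, and 25.3, 55.1 and 55.4 in ADF Crtc2 muscle. Col6a2 separated ADF GFP from all 9 other libraries. Col6a3 was measured at 48.8, 43.3 and 83.2 CPM in fed GFP, 17.3, 63.3 and 31.7 in fed Crtc2, 57.0, 144 and 104 in ADF GFP, and 16.8, 53.9 and 40.3 in ADF Crtc2 libraries.

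**Figure D2:**
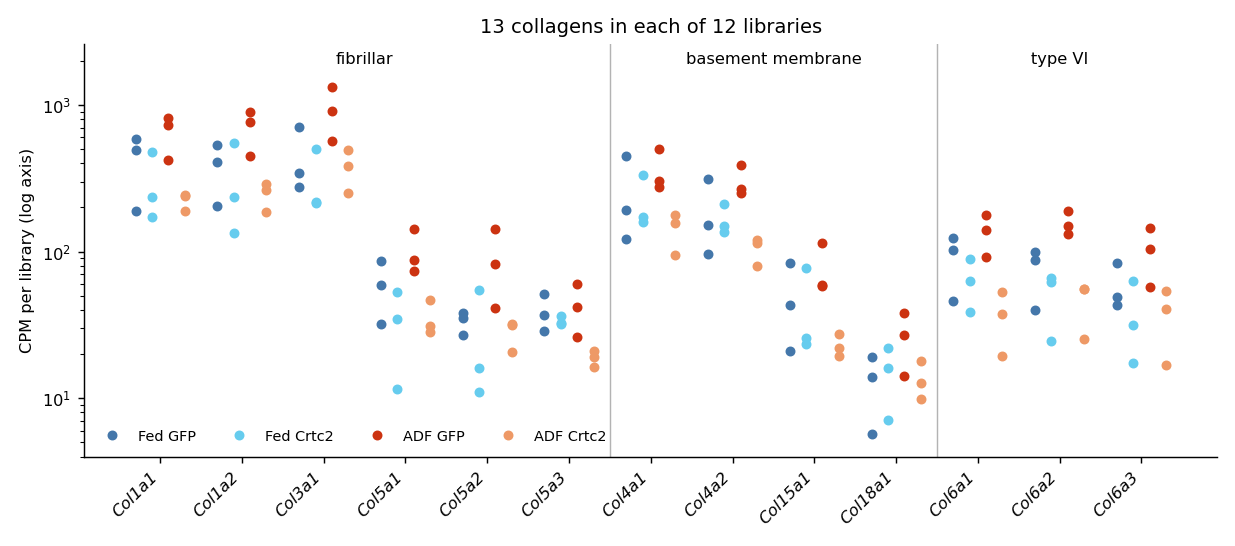
CPM of 13 chosen collagens in each of the 12 libraries on a log axis, grouped by class, with 1 point per library and colours for the 4 groups. ADF Crtc2 points lie below ADF GFP points for 12 of the 13 genes, the exception being Col18a1.

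ADF was first compared with ad libitum feeding, within each vector. The 2 collagens called in both vectors, Col24a1 and Col7a1, fell under ADF. They were 5.26% of the 38 tested members under each vector. Of all tested genes, 7.12% were called with GFP (3.06% lower) and 11% with Crtc2 (4.68% lower). Col24a1 encodes the chain of type XXIV collagen, a minor fibrillar collagen known from developing bone and cornea. It was at 78.5, 32.8 and 44.2 CPM in fed GFP, 23.4, 42.5 and 48.2 in fed Crtc2, 4.07, 5.86 and 8.09 in ADF GFP, and 1.17, 1.46 and 3.52 in ADF Crtc2 libraries. All 6 fed libraries were above all 6 ADF libraries. The fall was 8.60-fold in GFP muscle (log2 fold change -3.11 ± 0.46 SE, adjusted p = 0.000157, edgeR) and 18.4-fold in Crtc2 muscle (-4.20 ± 0.49, adjusted p = 6.24e-06, edgeR). The gene lies on the plus strand of chromosome 3, from 145292472 to 145552011 on GRCm38, and other annotated transcripts overlap it.

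Col7a1 encodes type VII collagen, the anchoring fibril that fastens basement membranes to the tissue below, best known from skin. Its values were 76.4, 60.03 and 47.9 CPM in fed GFP, 149, 80.2 and 106 in fed Crtc2, 10.4, 2.36 and 8.39 in ADF GFP, and 6.22, 15.8 and 5.87 in ADF Crtc2 libraries. Again no ADF library reached a fed one. Col7a1 fell 8.75-fold in GFP muscle (log2 fold change -3.13 ± 0.51, adjusted p = 0.0016, edgeR) and 12.03-fold in Crtc2 muscle (-3.59 ± 0.52, adjusted p = 0.000387, edgeR). It lies on the plus strand of chromosome 9, from 108953586 to 108984875. Ucn2, which encodes the hormone urocortin 2, follows it on the same strand after 1134 bp, and was looked at after its values were seen. Ucn2 had 129, 27 and 54 counts in fed GFP, 28, 53 and 162 in fed Crtc2 and 0 in all 6 ADF libraries (adjusted p = 0.00246 for the diet over both vectors, edgeR). Uqcrc1, a subunit of respiratory complex III that ends 3962 bp before Col7a1, went the other way over both vectors (0.56 ± 0.12, adjusted p = 0.00224, edgeR). With GFP alone neither gene was called (adjusted p = 0.0504 for Ucn2 and 0.15 for Uqcrc1, edgeR). With Crtc2 alone both were (0.0386 and 0.0123, edgeR).

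Over both vectors a further member passed. Col20a1, a fibril-associated collagen, was at 7.64, 5.99 and 11.99 CPM in fed GFP, 12.2, 5.94 and 12.6 in fed Crtc2, 0.39, 1.61 and 1.90 in ADF GFP, and 0.09, 1.62 and 1.99 in ADF Crtc2 libraries. The 6 fed libraries lay above the 6 ADF libraries, and Col20a1 fell 7.33-fold over both vectors (log2 fold change -2.87 ± 0.71, adjusted p = 0.00581, edgeR). Within a vector it did not pass, with adjusted p = 0.116 in GFP muscle and 0.0565 in Crtc2 muscle (edgeR). BX649560.1, an overlapping gene on the same strand, held 2783 counts, so reads of the pair may have been split between them. In the fit over both vectors these 3 members of 38 were called lower and 0 higher, where 18% of all tested genes were called, 9.38% higher and 8.64% lower. The 3 were also the members whose 6 ADF and 6 fed libraries did not overlap, which held in the lower direction for 4.07% of all genes.

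**Figure D3:**
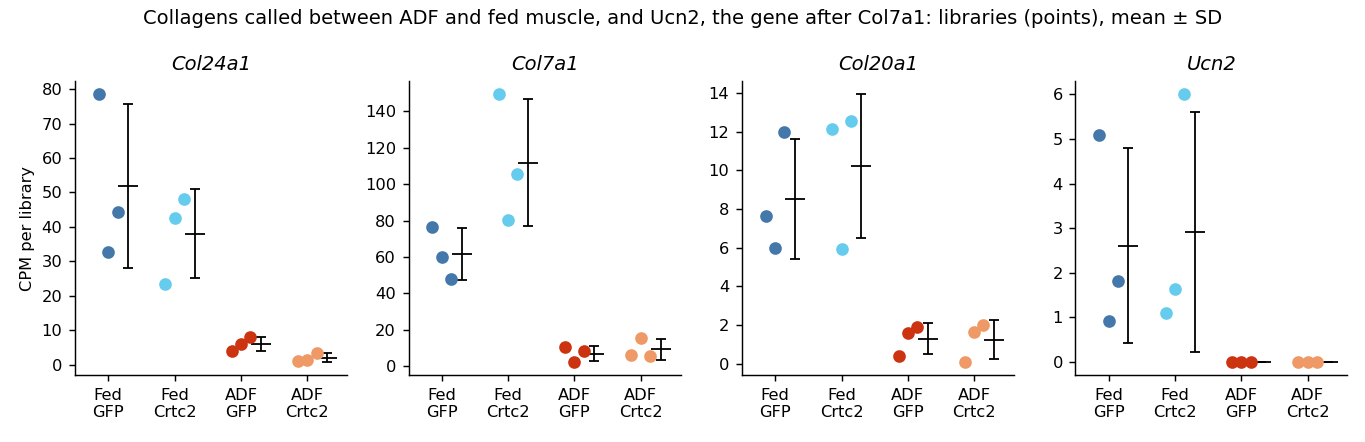
CPM per library (points) with group mean ± SD (bars, n = 3) for Col24a1, Col7a1, Col20a1 and Ucn2, the gene that follows Col7a1. Fed libraries of each gene lie above its ADF libraries, and Ucn2 is at 0 in all 6 ADF libraries.

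The promoters of Col24a1 and Col7a1 are shown because these genes fell with ADF under both vectors and because Crtc2 acts through Creb1, which binds the cyclic AMP response element (CRE). Col3a1 is shown as an abundant fibrillar gene that was not called. Sequences are RefSeq windows on GRCm38.p6, plus strand, from 250 bases before the start site, and capitals mark matches on either strand to TGACGTCA (full CRE), TGACG (the shorter CRE site, also counted inside a full CRE), CCAAT or TATAAA.
Col24a1, chr3:145292222-145292472: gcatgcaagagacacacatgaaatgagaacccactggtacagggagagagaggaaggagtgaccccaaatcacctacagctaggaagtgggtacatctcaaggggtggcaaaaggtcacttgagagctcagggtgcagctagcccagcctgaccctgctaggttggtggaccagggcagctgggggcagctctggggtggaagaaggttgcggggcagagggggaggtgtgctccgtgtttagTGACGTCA
Col7a1, chr9:108953336-108953585: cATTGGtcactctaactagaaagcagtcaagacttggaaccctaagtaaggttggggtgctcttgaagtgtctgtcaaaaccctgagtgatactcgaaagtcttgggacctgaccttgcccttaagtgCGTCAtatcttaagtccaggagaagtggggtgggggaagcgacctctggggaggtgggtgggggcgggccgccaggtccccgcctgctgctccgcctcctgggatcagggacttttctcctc
Col3a1, chr1:45311288-45311537: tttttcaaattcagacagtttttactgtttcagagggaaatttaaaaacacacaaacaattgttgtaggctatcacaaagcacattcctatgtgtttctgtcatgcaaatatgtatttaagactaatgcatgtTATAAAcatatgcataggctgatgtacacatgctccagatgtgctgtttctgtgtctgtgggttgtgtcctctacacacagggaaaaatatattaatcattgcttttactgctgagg
The full CRE of Col24a1 ends at the annotated first base of the transcript, and Col7a1 holds a shorter site, written cgtca on the strand shown, and a CCAAT box. Of the 43 members, 34 had a promoter in the table, with 37 windows. A full CRE was found in 1 member, Col24a1 (2.7% of member windows), and in 1.79% of all 32851 windows. The shorter site was found in 4 members (Col24a1, Col7a1, Col11a2 and Col4a5), 10.8% of member windows, and in 20.8% of all windows. CCAAT was found in 12 members (32.4%, all windows 37.4%) and TATAAA in 4 members (10.8%, all windows 13.6%). Col20a1, also called lower with ADF, had no match. In the main fit neither Col24a1 nor Col7a1 was called for Crtc2 against GFP. A match describes letters in this window and was not tested as a binding site.

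The other collagens were not called between ADF and feeding under GFP. The 13 main collagens, chosen with earlier results of these data known, all had log2 fold changes above 0, with a median of 0.79 (range 0.13 to 1.41), and 0 of them passed. Of the 38 tested members 26 were above 0, where 49.4% of all genes were, and 12 were below, Col24a1 and Col7a1 among them. The median of the 38 was 0.62 against -0.01 over all genes. That median was 0.29 when ADF GFP replicate 2 was left out, 0.28 when fed GFP replicate 2 was, and 0.94 when fed GFP replicate 3 was. In this comparison 7.12% of all tested genes were called. Nearest to the threshold among the 13 was Col5a2, 2.65-fold higher in the ADF mean (1.41 ± 0.53, adjusted p = 0.156, edgeR), then Col6a2 at 2.07-fold (1.05 ± 0.41, adjusted p = 0.162, edgeR). Col3a1 was 2.12-fold higher (1.09 ± 0.47) with adjusted p = 0.237, Col1a1 1.54-fold (0.62 ± 0.45) with 0.519 and Col4a1 1.42-fold (0.51 ± 0.47) with 0.658, all from edgeR. Col5a3 differed least, at 0.13 ± 0.31. Of the 38 tested members, 6 had ADF GFP libraries that were all above the fed GFP libraries (15.8%, where all genes gave 14.3%). They were Col5a2, Col6a2, Col8a2, Col9a1, Col12a1 and Col16a1. Without fed GFP replicate 3, Col4a2 was called higher, and without fed Crtc2 replicate 2, Col5a2 was.

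Under the Crtc2 vector, most members had log2 fold changes below 0 in the same contrast, by an amount that depended on single libraries. Of the 38 tested collagens, 29 had a log2 fold change below 0, where 55.2% of all genes did, with a median of -0.50 against -0.13 over all genes. Without fed Crtc2 replicate 2 the median was -0.10 (all genes -0.05) with 23 of 38 below 0. It was -0.34 without ADF Crtc2 replicate 1 and -0.75 without ADF Crtc2 replicate 3 or fed Crtc2 replicate 1. All 7 basement membrane members were below 0, with Col15a1 at -0.88 ± 0.52, Col4a2 at -0.65 ± 0.35 and Col4a1 at -0.63 ± 0.48. Col1a1 was at -0.39 ± 0.45 and Col6a1 at -0.81 ± 0.42, while Col3a1 (0.28 ± 0.47), Col5a1 (0.09 ± 0.47) and Col5a2 (0.04 ± 0.53) were slightly above 0. Apart from Col24a1 and Col7a1 no member passed in this fit, and 11% of all tested genes were called. Col5a3 was closest among the main collagens, 1.79-fold lower (-0.84 ± 0.31, adjusted p = 0.0938, edgeR). Its ADF and fed libraries did not overlap, which also held for Col4a2. The share of all genes without overlap is not given for this comparison.

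Crtc2 against GFP in fed muscle asks what the coactivator changed without fasting. No collagen was called, as was true of all tested genes (0%, edgeR), and 0 of the 38 had an unadjusted p under 0.05, which 3.17% of all genes had with a higher and 2.27% with a lower level. Crtc2 itself was not called in this comparison (1.51 ± 0.28, adjusted p = 0.134, edgeR), nor under ADF (0.95 ± 0.27, 0.127). The lack of calls thus does not show a lack of change. DESeq2 also called 0 collagens, with 81 calls over the table. Without fed Crtc2 replicate 2, 7 members were lower at that unadjusted p, without fed GFP replicate 2 there were 3, and without fed Crtc2 replicate 1 there were 2 higher and 1 lower, with 0 called. Log2 fold changes of the 13 main collagens, a chosen set, lay between -0.83 (Col5a1, ± 0.47) and 0.22 (Col18a1, ± 0.49), with a median of -0.32, and 12 of the 13 were below 0. Over the 38 members, 22 were below 0 (49.1% of all genes were), with a median of -0.19. That median was 0.01 without fed GFP replicate 3 or fed Crtc2 replicate 1. Col7a1 was the member whose 3 fed Crtc2 libraries all exceeded the 3 fed GFP libraries, as 4.7% of all genes did, at 1.82-fold (0.86 ± 0.47, adjusted p = 0.887, edgeR). Col14a1 (-1.80 ± 1.26) and Col22a1 (-0.35 ± 0.31) had no overlap in the lower direction, as 3.84% of all genes did, and neither passed.

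Under ADF, the mean levels of all 3 collagen classes were lower in Crtc2 than in GFP muscle, but no single collagen passed the adjusted threshold in the fit over all 12 libraries. Of the 38 tested members, 32 had log2 fold changes below 0 and 5 above, where 50.7% of all genes were below. The remaining member, Col25a1, had 0 counts in all 6 ADF libraries. An unadjusted p under 0.05 was reached by 16 members, all lower, where 7.23% of all genes did so in that direction and 4.07% in the other. With the adjustment 0 members were called, beside 0.725% of all genes (edgeR). The libraries of 18 members did not overlap (47.4%, against 11.8% of all genes), all lower with Crtc2, where 9.6% of all genes did not overlap in the higher direction. The median log2 fold change of the 38 members was -1.07 against -0.01 over all genes. Of the 13 main collagens, a chosen set, 12 were among the 18, and the median of the 13 was -1.53.

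Of the 13 main collagens, Col6a1 and Col6a2 of type VI differed most. Col6a1 was 3.76-fold lower in ADF Crtc2 than in ADF GFP muscle (-1.91 ± 0.43, adjusted p = 0.0649, edgeR), Col6a2 3.45-fold (-1.79 ± 0.41, 0.0724) and Col6a3 2.74-fold (-1.46 ± 0.52, 0.309). In the basement membrane class, Col15a1 was 3.37-fold lower (-1.75 ± 0.53, adjusted p = 0.194, edgeR) and Col4a2 2.88-fold (-1.53 ± 0.35, 0.0713). Col4a1 was 2.52-fold lower (-1.33 ± 0.48, 0.331) and Col18a1 1.96-fold (-0.97 ± 0.49, 0.46). Among fibrillar genes, Col5a2 was 3.16-fold lower (-1.66 ± 0.54, adjusted p = 0.247, edgeR), Col1a1 2.91-fold (-1.54 ± 0.45, 0.21), Col5a1 2.88-fold (-1.53 ± 0.48, 0.217) and Col1a2 2.83-fold (-1.50 ± 0.52, 0.317). Col3a1 was 2.49-fold lower (-1.32 ± 0.47, 0.331) and Col5a3 2.26-fold (-1.18 ± 0.31, 0.0872). Col24a1, already low under ADF, was a further 2.92-fold lower with Crtc2 (-1.55 ± 0.45, adjusted p = 0.127, edgeR), and Col7a1 stood at 0.40 ± 0.48.

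**Figure D4:**
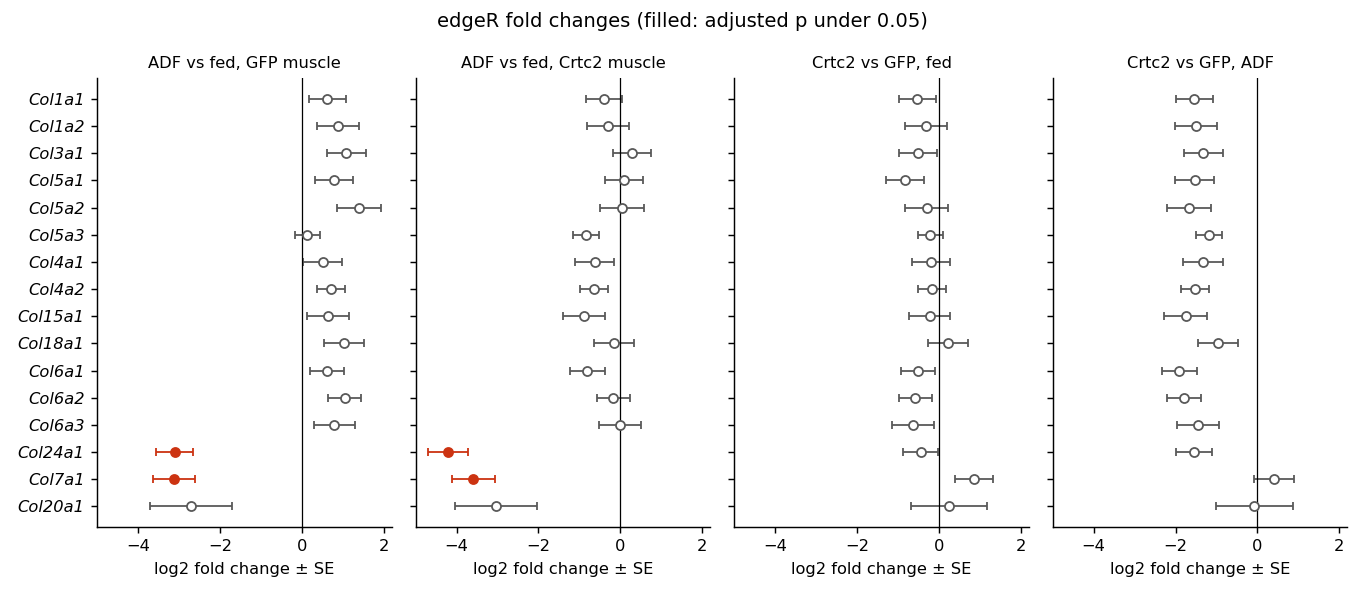
Log2 fold change ± SE (edgeR) of the 13 main collagens and the 3 called members in the 4 comparisons of a pair of groups, with filled symbols for adjusted p under 0.05. Col24a1 and Col7a1 are called under both vectors, and under ADF the 13 main collagens lie between -1.91 and -0.97 without a call.

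How many collagens passed in ADF Crtc2 against ADF GFP depended on the fit. DESeq2 called 9 lower (Col1a1, Col4a2, Col5a1, Col5a2, Col5a3, Col6a1, Col6a2, Col15a1 and Col24a1). An edgeR fit on the 6 ADF libraries alone called 10 lower (Col1a1, Col1a2, Col3a1, Col4a1, Col4a2, Col5a1, Col5a2, Col6a1, Col6a2 and Col15a1). Over its 19 alternative fits the adjusted p of Col6a1 ranged from 0.000594 to 0.223, that of Col4a2 from 0.00112 to 0.291 and that of Col1a1 from 0.00391 to 0.616. Leaving out 1 library gave 3 calls without fed GFP replicate 2, 3 without fed Crtc2 replicate 1, and 1 each without ADF GFP replicate 1, fed GFP replicate 3 or fed Crtc2 replicate 2. Without ADF GFP replicate 2, the library with the most collagen, 10 members rather than 16 had an unadjusted p under 0.05, all lower.

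Whether Crtc2 acted differently under the diets was tested by the interaction, the log2 fold change of Crtc2 over GFP under ADF minus that in fed muscle. It was below 0 for 33 of the 38 members (53.8% of all genes), with a median of -1.16 against -0.08 over all genes. The median of the 38 was -0.55 without fed Crtc2 replicate 2. All 13 main collagens, a chosen set, were below 0, with a median of -1.19. No collagen was called, as no gene was (0%, edgeR), and DESeq2 called 0 collagens. An unadjusted p under 0.05 was reached by 3 members, all lower, where 5.06% of all genes were lower and 2.69% higher at that p: Col4a2 (-1.36 ± 0.49, adjusted p = 0.559), Col6a1 (-1.41 ± 0.59, 0.62) and Col5a3 (-0.97 ± 0.44, 0.622, all from edgeR). That count was 11 without fed Crtc2 replicate 1, 7 without ADF GFP replicate 1, 4 or 5 without 5 other libraries, 2 without ADF Crtc2 replicate 1 or fed Crtc2 replicate 2, and 1 without ADF GFP replicate 2 or 3 or fed GFP replicate 2. Averaged over both diets, 16 members were lower with Crtc2 at an unadjusted p under 0.05 (6.19% of all genes, with 3.95% higher) and 0 passed the adjustment, beside 0.494% of all genes. The count was 10 in place of 16 without fed GFP replicate 3 or fed Crtc2 replicate 3. Here DESeq2 called 5, Col1a1, Col4a2, Col5a1, Col6a1 and Col6a2.

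The remaining tested members were low. Col22a1, which lies at the junction of muscle and tendon, was at 16.3 to 35.5 CPM in the 12 libraries, and Col14a1 and Col12a1, which sit on the surface of type I fibrils, reached at most 46.1 and 35.3 CPM. Both were at 0 in fed Crtc2 replicate 1, as were Col11a1 and Col8a2. Col8a1 and Col16a1 ranged from 3.28 to 41.7 and from 5.75 to 26.5 CPM. The type IV chains outside the Col4a1 and Col4a2 network were scarce, with at most 20.8 CPM for Col4a5, 9.77 for Col4a3 and 2.17 for Col4a4. Col2a1, the cartilage collagen, reached at most 2.00 CPM.

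Genes that make, break down, bind or accompany collagen were counted from 5 lists. Collagen is modified in the endoplasmic reticulum, trimmed and crosslinked outside the cell, and cut by matrix metalloproteinases. Of 29 tested genes of collagen making and crosslinking, 1 rose with ADF in GFP muscle and 0 fell, 1 rose and 2 fell in Crtc2 muscle, and 0 passed for Crtc2 against GFP under ADF. In Crtc2 muscle 0 rose and 0 fell without ADF Crtc2 replicate 1, 0 rose without fed Crtc2 replicate 1, 2 rose and 1 fell without fed GFP replicate 1, and 1 fell without any one ADF GFP library, ADF Crtc2 replicate 2, fed GFP replicate 3 or fed Crtc2 replicate 3. In GFP muscle 2 rose without fed GFP replicate 1. Of 15 tested breakdown genes and inhibitors, 3 rose with ADF in GFP muscle, 1 fell in Crtc2 muscle, and 3 were lower with Crtc2 under ADF. Of those 3, Mmp2 alone was called without ADF GFP replicate 2 or 3 or ADF Crtc2 replicate 1 or 2. The fall in Crtc2 muscle, of the collagen uptake receptor Mrc2, was lost without any one ADF library, fed GFP replicate 2 or fed Crtc2 replicate 2 or 3. Of 8 tested genes on the list of collagen receptors, 1 rose with ADF in GFP muscle, 1 rose and 1 fell in Crtc2 muscle, and 0 passed for Crtc2 under ADF. The gene that rose was Dag1 under both vectors. It is a receptor for laminin rather than for collagen, and no other gene of the list was called higher. The fall, of Ddr2, was lost without ADF Crtc2 replicate 1 or fed Crtc2 replicate 2. Of 15 fibrosis signalling genes, 1 fell with ADF under each vector (Acta2) and 0 passed for Crtc2 under ADF. The fall in GFP muscle was lost without any one ADF GFP library, ADF Crtc2 replicate 2 or 3 or fed GFP replicate 1 or 3, and without fed GFP replicate 3 there were 3 that rose. Of 11 fibril proteoglycans and basement membrane partners, 2 rose with ADF in GFP muscle, 1 fell in Crtc2 muscle, and 5 were lower with Crtc2 under ADF. The 5 became 3 without ADF GFP replicate 1, 2 without ADF GFP replicate 2 or ADF Crtc2 replicate 2 or 3, and 1 (Bgn) without ADF GFP replicate 3 or ADF Crtc2 replicate 1. The 2 in GFP muscle (Dcn and Nid1) were both lost without ADF GFP replicate 2 or 3 or fed GFP replicate 1 or 2. In Crtc2 muscle 2 fell without fed GFP replicate 1 or 3, and 1 rose without fed Crtc2 replicate 2. Over all genes, 4.06% rose and 3.06% fell with ADF in GFP muscle, 6.3% rose and 4.68% fell in Crtc2 muscle, and 0.65% were lower with Crtc2 under ADF.

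Among these genes, Dag1, the dystroglycan that ties muscle fibres to laminin, rose with ADF from 99.2 to 309 CPM in GFP muscle (1.64 ± 0.17, adjusted p = 2.93e-06, edgeR) and from 117 to 233 CPM in Crtc2 muscle (0.99 ± 0.17, adjusted p = 0.000487). Colgalt1, which adds galactose to collagen, rose from 16.3 to 52.2 CPM in GFP muscle (1.68 ± 0.32, adjusted p = 0.00209, edgeR) and from 17.1 to 39.9 CPM in Crtc2 muscle (1.23 ± 0.32, 0.014). The latter call was lost without ADF Crtc2 replicate 1 or fed Crtc2 replicate 1 and with library totals (adjusted p up to 0.0823). The gelatinase Mmp2 rose from 72.1 to 187 CPM with ADF in GFP muscle (1.37 ± 0.24, adjusted p = 0.00101, edgeR), as did Timp3, a metalloproteinase inhibitor, from 28.3 to 74.6 CPM (1.40 ± 0.29, 0.00438). In Crtc2 muscle, levels that fell with ADF were those of Acta2, the smooth muscle actin (-1.12 ± 0.24, adjusted p = 0.00381, edgeR), and Hspg2, the basement membrane proteoglycan perlecan (-0.85 ± 0.20, 0.00708).

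With Crtc2 under ADF, the genes with the smallest p were lower. Mmp2 was at 56.2 against 187 CPM (-1.73 ± 0.25, adjusted p = 0.00312, edgeR), and Bgn, the fibril proteoglycan biglycan, at 92.0 against 243 CPM (-1.40 ± 0.23, 0.00646). Nid1, which joins laminin to type IV collagen, was at 41.0 against 118 CPM (-1.52 ± 0.28, 0.0113), and Hspg2 at 113 against 217 CPM (-0.93 ± 0.20, 0.0274). Mmp2 and Bgn stayed called in all 19 alternative fits. The Nid1 call was lost without ADF GFP replicate 3 or ADF Crtc2 replicate 1 or 3 (adjusted p up to 0.102), and the Hspg2 call without any 1 of the 6 ADF libraries (up to 0.17).

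Summed markers of fibroblasts, tenocytes and macrophages were highest in ADF GFP muscle by group mean, as the collagen sums were. So were the low sums of adipocyte and satellite cell markers. The 10 fibroblast markers summed to 498 to 748 CPM in fed GFP, 317 to 574 in fed Crtc2, 1263 to 1473 in ADF GFP and 680 to 734 in ADF Crtc2 libraries. All 10 had log2 fold changes below 0 with Crtc2 under ADF, and 1 passed (Mfap5). Its call was lost without any one of the 6 ADF libraries or fed GFP replicate 3, and 2 passed without fed GFP replicate 2 or any one fed Crtc2 library. The 6 tenocyte markers summed to 265 to 549 CPM in ADF GFP and 132 to 188 in ADF Crtc2 libraries, with 173 to 272 in fed GFP and 111 to 190 in fed Crtc2. Most of each sum came from Fmod, Thbs4 and Kera. Tnmd, Scx and Mkx reached at most 43.8, 12.96 and 3.94 CPM in any library, and each overlapped between the ADF groups. Of the 6 markers, 5 were below 0 with Crtc2 under ADF, and 1 passed (Thbs4), while Mkx was above 0 (0.68 ± 2.45). With ADF in GFP muscle 4 were above 0, and Scx (-1.14 ± 1.17) and Mkx (-0.19 ± 2.44) were below. Macrophage markers (7 genes) summed to 296 to 518 CPM in ADF GFP and 80.2 to 144 in ADF Crtc2 libraries, with 224 to 291 in fed GFP and 111 to 202 in fed Crtc2. All 7 were below 0 with Crtc2 under ADF, and 3 passed. Without ADF GFP replicate 3 or ADF Crtc2 replicate 1 only Csf1r passed, and without fed Crtc2 replicate 1 there were 5.

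Endothelial markers (9 genes) summed to 359 to 541 CPM in ADF GFP and 270.1 to 372 in ADF Crtc2 libraries, and these groups overlapped, as did smooth muscle and pericyte markers (7 genes) at 297 to 465 and 252 to 309 CPM. In the fed groups the endothelial sums were 376 to 783 CPM with GFP and 509.9 to 709 with Crtc2, and the smooth muscle and pericyte sums 391 to 669 and 270.1 to 518. Schwann cell markers (6 genes) were the other way round, at 110.4 to 237 CPM in ADF Crtc2 and 54.5 to 95.2 in ADF GFP libraries, with 0 of 6 called. Adipocyte and satellite cell markers summed to at most 62.2 and 23.3 CPM in any library. No marker was at 0 in all 12 libraries. The fibroblast list shares Dcn, Lum and Pcolce with the lists above, the tenocyte list Fmod, and the smooth muscle list Acta2. The part of these cells in the collagen differences was not tested. The merged exons of collagen genes are also long, with a median of 7.73 kb against 3.93 kb over all genes. The 2280 other genes of 6.58 to 9.76 kb had a median log2 fold change of -0.10 for Crtc2 under ADF and 0.10 for ADF in GFP muscle.

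**Figure D5:**
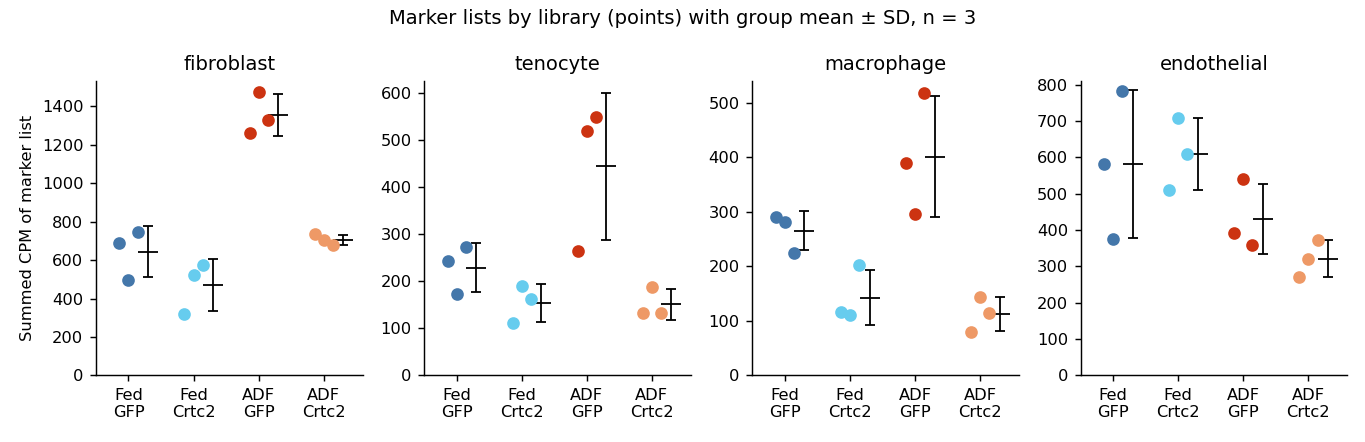
Summed CPM of fibroblast, tenocyte, macrophage and endothelial marker lists in each library (points, vertical axis from 0) with group mean ± SD (bars, n = 3). The fibroblast, tenocyte and macrophage sums of ADF GFP lie above those of ADF Crtc2, and the endothelial sums overlap. Most of each tenocyte sum comes from Fmod, Thbs4 and Kera.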

How the data were processed

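The table that the authors deposited holds unnormalized whole-number counts for each Ensembl gene and 12 libraries. Named in the submitters' processing notes are Subread 1.6.1 with featureCounts, HISAT2 2.0.5, SAMtools 1.7, DESeq2 1.18.1 and the builds GRCm38 and mm10. The role of each tool, the annotation and the strand setting are not given in the sources used here, and 0 columns belonged to no sample. From 68.9 to 74.7% of the counts from 2 to 21 in a library were even, so counts may be of reads rather than fragments. Genes kept by filterByExpr over the 4 groups (16007) were tested with edgeR 4.0.16 (R 4.3.3): TMM scaling, robust quasi-likelihood fit of 4 group means over all 12 libraries, 7 comparisons, Benjamini-Hochberg adjustment over all tested genes, threshold 0.05 ("called"). SE was taken as the size of the log2 fold change over the square root of its F statistic. Tests were checked on simulated data. CPM use TMM-scaled library sizes. Exon lengths, with the overlapping exons of a gene merged, and positions are from GENCODE M21 (GRCm38, 99.9% of genes matched). Motifs were searched from 250 bases before to 50 after each RefSeq start.

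The members, classes and lists were chosen with earlier results of these data known. Values per library are given for 13 collagens (Col1a1, Col1a2, Col3a1, Col5a1, Col5a2, Col5a3, Col4a1, Col4a2, Col15a1, Col18a1, Col6a1, Col6a2, Col6a3) and every member called in any comparison. The 13 are called main here, which is not a ranking by level. From the lists, up to 4 called genes a comparison are named, by smallest p, for the 4 comparisons of a pair of groups. Alternatives were DESeq2 1.42.0, RLE factors, library totals, no filter beyond 10 counts, a mean of 10 CPM, the replicate number as a block, the compared groups alone and each library left out. No library was a duplicate of another in its group.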

Additional observations from a re-analysis of the deposited data

How the results depend on the processing

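Col24a1 and Col7a1 were called lower with ADF under each vector in all 19 alternative fits, and over both vectors in all 18; Col20a1 was called over both vectors in the 17 in which it was tested. The class ratios moved by less than 1 SD between libraries under every alternative run on them, but 3 changed sign when 1 library was left out: fibrillar, ADF against fed with Crtc2 (log2 -0.45 to 0.38), basement membrane, Crtc2 against GFP in fed muscle (-0.51 to 0.46), and other collagens in the latter (-0.31 to 0.04). Counts of collagens called moved as follows. In GFP muscle, ADF gave 1 higher (Col16a1) and 3 lower with DESeq2, and 0 to 1 higher when each library was left out. In Crtc2 muscle, ADF gave 4 lower with library totals and 6 with DESeq2. Over both vectors, ADF gave 5 lower with DESeq2, 3 to 5 lower and 0 to 2 higher when each library was left out, the 5 without fed GFP replicate 2 and the 2 without fed Crtc2 replicate 2. With Crtc2 under ADF, 1 was lower with library totals, 9 with DESeq2, 10 in the fit on the 2 groups alone and 0 to 3 when each library was left out. For Crtc2 over both diets, DESeq2 gave 5 lower and leaving out each library 0 to 4, the 4 without fed GFP replicate 2. The cause was not tested.

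With the replicate number as a block, 2 collagens were lower with Crtc2 under ADF (Col6a2 and Col6a3) and 1 over both diets (Col6a3). Whether the numbers pair the libraries is not known. Same-numbered libraries had correlations of -0.038 to 0.134, with 1 of 18 over 0.1. Libraries of different numbers had -0.123 to 0.052, with 0 of 36 over 0.1. In 15 of 36 cases a library correlated best with its own number among the 3 of another group. These low values cannot decide whether animals were shared. Library totals moved the median of all genes from -0.13 to -0.43 for ADF in Crtc2 muscle, and the split of calls from 1009 higher and 749 lower to 511 and 1234. In GFP muscle the split went from 650 and 490 to 476 and 596, and over both vectors from 1501 and 1383 to 991 and 2005. Over the whole table, DESeq2 called 692 genes for Crtc2 under ADF, 181 for the interaction and 481 for Crtc2 over both diets, where edgeR called 116, 0 and 79. With 3 against 3 libraries the smallest exact two-sided p is 0.1, so no single member could pass an exact test.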

Other observations

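The ratio of Col1a1 to Col1a2, the chains of type I collagen, was 0.827 to 1.29 over the 12 libraries. The ratio of Col6a1 to Col6a2 was 0.675 to 0.951 in the 6 ADF libraries and 0.952 to 1.59 in the 6 fed libraries, so that the ranges met without overlap. Col3a1 to Col1a1 was 0.704 to 1.45 in fed GFP, 0.918 to 1.25 in fed Crtc2, 1.26 to 1.64 in ADF GFP and 1.34 to 2.05 in ADF Crtc2 libraries, so the ADF groups overlapped with fed GFP. These ratios were chosen after their values were seen and were not tested.

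The composition factors (TMM) ranged from 0.838 to 1.19. In fed GFP replicate 3 (1.16), fed Crtc2 replicate 2 (1.19) and ADF Crtc2 replicate 3 (0.894) the highest factor of the group went with the highest collagen sum, and in ADF GFP the factors of replicates 2 and 3 were 1.06 and 1.07. The part of composition in the collagen levels was not tested.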
